A study of Mus musculus with 4 samples.

Results

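Ptbp1, Ptbp2, Nova1, Nova2, Rbfox1, Rbfox2, Rbfox3, Srrm4, Mbnl1 and Mbnl2 are regulators of neural alternative splicing, the choice of which exons of a pre-mRNA are joined. They were chosen by name and are 10 of the 29224 genes measured. All 10 were counted in every library and all 10 passed the filter on low counts. RNA was sequenced from cells of the P5 cerebral cortex that had been collected with magnetic beads carrying an antibody to GLAST (ACSA-1), a glutamate transporter of the astrocyte surface. The Ezh2 f/f group, which the data columns call WT, carries Ezh2 flox/flox alleles by its name in the methods, and its Cre status is not stated. The Ezh2 cKO group came from breeding Ezh2 flox/flox mice with Aldh1l1-icre mice. As named, both groups share the floxed alleles, and they differ by a Cre whose promoter, that of Aldh1l1, is active mainly in astrocytes. Each group has 2 libraries, and the comparison asks how the level of each gene differed after the deletion of Ezh2, which encodes the methyltransferase of Polycomb repressive complex 2. Neither the labels nor the methods say whether the libraries of a group came from separate animals or from pools, so p-values measure only the spread between these samples, which may be technical.

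Splicing regulators bind short sequence motifs in pre-mRNA and favour or block the use of a nearby exon. PTBP1 is known as the repressor of neuronal exons in progenitors and glia, PTBP2 takes over part of its role in young neurons, and nSR100 (the product of Srrm4), NOVA, RBFOX and MBNL proteins promote neuronal or mature exon programmes. The counts and FPKM used here are sums over a whole gene. They measure how much RNA of each regulator was present and not whether any target exon was included.

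The libraries held 16273308 to 17522152 counted reads, and between 23390 and 24033 genes had at least 1 count. Libraries of the same group differed by more than sampling noise, with a chi-square per degree of freedom of 8.92 in Ezh2 f/f, against 5.68 in Ezh2 cKO, and were kept as separate samples. The targeted gene Ezh2 had 434 and 327 counts in Ezh2 f/f, against 211 and 164 in Ezh2 cKO, a fall of 2.16-fold that the gene-level counts do not resolve by exon (log2 fold change -1.11, SE 0.16, edgeR adjusted p = 3.26e-05). Changes are given as Ezh2 cKO relative to Ezh2 f/f. A gene is called higher or lower where the adjusted p of the edgeR quasi-likelihood test, run on the 16793 genes that passed the filter, was under 0.05. The group difference was broad, with 5831 genes called higher and 5650 lower and a median log2 fold change of 0.02 over all genes tested.

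The labelled cell type was checked against marker genes. Astrocyte markers were present in every library, with a summed level of 479 and 494 CPM (counts scaled to library size) in Ezh2 f/f, against 2806 and 2558 in Ezh2 cKO, and 8 of 10 were called higher. Aldh1l1 itself was not called, with 1285 and 1250 counts in Ezh2 f/f, against 1280 and 1155 in Ezh2 cKO. Neuronal transcripts were abundant in every library as well, although sums over different genes are not scaled to length and the lists are not compared with each other. The mature neuron list summed to 6445 and 6772 CPM in Ezh2 f/f, against 11218 and 10921 CPM in Ezh2 cKO, with 10 of 12 markers higher, among them Camk2a, a synaptic kinase (log2 fold change 3.04), and Slc17a7, a vesicular glutamate transporter (3.44). Tubb3, a tubulin abundant in young neurons, was the 1 marker of that list called lower (-0.71). Its mean level, 3617 CPM in Ezh2 f/f, against 2208 CPM in Ezh2 cKO, was the highest of the 12 in both groups. The sum of the mature neuron list therefore holds a large part that moved against the other called markers. The immature neuron list moved the other way, from 2235 and 2053 CPM to 620 and 669 CPM, with 7 of 8 lower and none higher. Sox11 (-2.99) and Igfbpl1 (-3.31) had the smallest p of that list. Neural progenitor markers summed to 372 and 380 CPM in Ezh2 f/f, against 179 and 169 CPM in Ezh2 cKO, with 7 of 8 lower and 1 higher. Nes (-1.62) and Vim (-1.04) had the smallest p of the progenitor markers, though not the largest falls. Oligodendrocyte precursor (6 of 6), oligodendrocyte (6 of 6) and microglia (8 of 8) markers were all called higher. Of 6 endothelial markers 1 was higher and 1 lower, and of 6 mural markers 3 were higher and 1 lower. No marker was at 0 in all libraries. In bulk RNA, fewer cells of a type and less RNA per cell cannot be told apart.

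**Figure D1:**
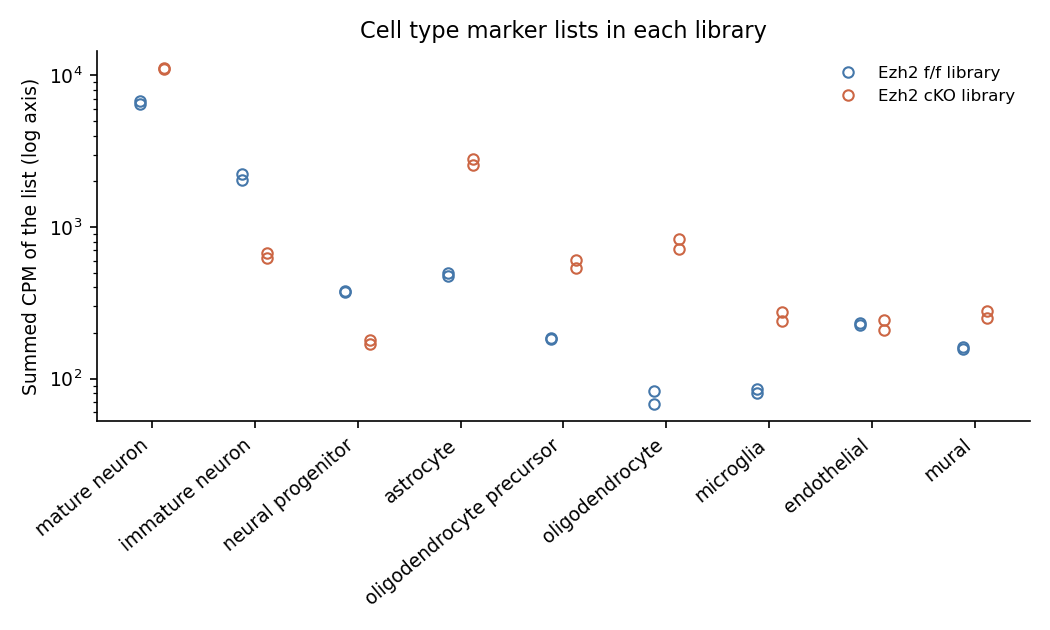
Summed CPM (log axis) of each cell type marker list, with 1 circle per library in Ezh2 f/f and Ezh2 cKO. The mature neuron sum rose from at most 6772 to at least 10921 CPM while the immature neuron sum fell from at least 2053 to at most 669 CPM.

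Of the 10 splicing regulators, 5 were called lower (Ptbp1, Ptbp2, Nova1, Rbfox2 and Srrm4), 4 were called higher (Rbfox1, Rbfox3, Mbnl1 and Mbnl2), and Nova2 was not called, against 33.6% of all genes tested called lower and 34.7% called higher. The lower calls were at least 2-fold for 4 of the 10 members, against 14.0% of all genes tested. The higher calls were at least 2-fold for 1, Mbnl2, against 19.0%. In CPM, both Ezh2 cKO libraries lay above both Ezh2 f/f libraries for 4 members and below for 6, against 42.8% and 41.5% of all genes tested. The median log2 fold change over the members was -0.51, against 0.02 over all genes tested. So many genes differed between the groups that the numbers of members called higher and lower are not read as a result about the members. The members lower by at least 2-fold were a larger share than among genes in general, and this difference was not tested. What follows describes each gene and its paralogs. The summed level of the 10 members was 1957 and 2011 CPM in Ezh2 f/f, against 1365 and 1348 CPM in Ezh2 cKO.

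**Figure D2:**
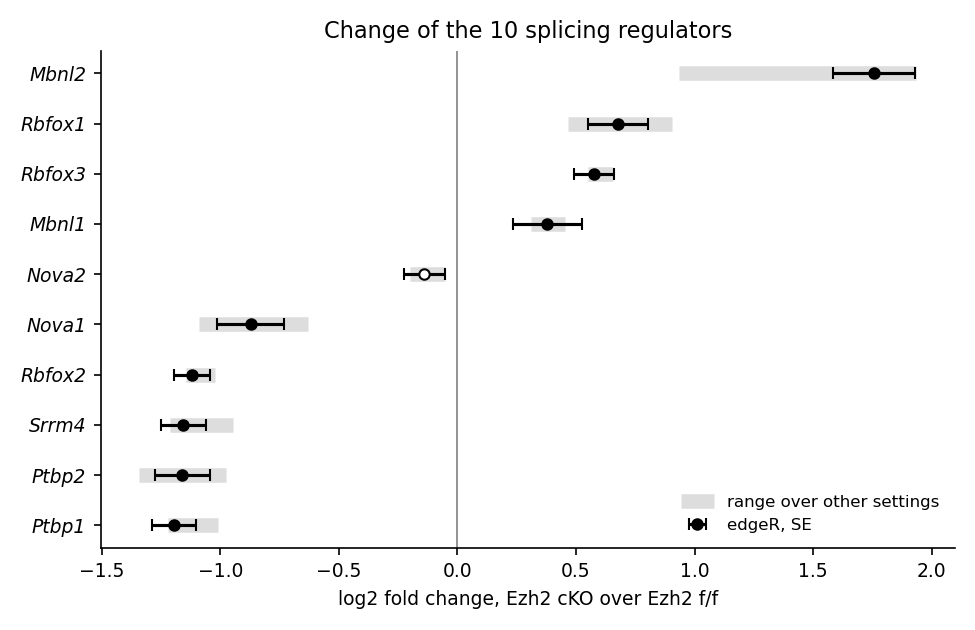
Log2 fold change of each splicing regulator (Ezh2 cKO over Ezh2 f/f), with points and bars giving the edgeR estimate and its SE, an open point for a gene that was not called, and grey bands the range over the other settings. Changes ran from -1.20 for Ptbp1 to 1.76 for Mbnl2, and the widest band, that of Mbnl2, reached down to 0.93.

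The RNA of both PTB genes was lower in Ezh2 cKO. Ptbp1 (ENSMUSG00000006498, deposited position chromosome 10, 79690261 to 79700605, plus strand) encodes the polypyrimidine tract binding protein that represses neuronal exons. It had 1229 and 1145 counts in Ezh2 f/f, against 567 and 538 in Ezh2 cKO. Its FPKM was 14.8 in each Ezh2 f/f library, against 6.90 and 6.81 in Ezh2 cKO. The groups did not overlap and the libraries within each were close together. The fall was 2.29-fold (log2 fold change -1.20, SE 0.09, edgeR adjusted p = 6.96e-08). Ptbp1 overlaps Plppr3, a gene on the opposite strand, over 4297 bases of the deposited positions. Plppr3 was more heavily counted and lower too, with 9301 and 8599 counts in Ezh2 f/f, against 4962 and 4742 in Ezh2 cKO. The use of strand in the counting is not given in the sources used here, so the level of Ptbp1 is uncertain to the extent that reads of the shared stretch were assigned to it. In GENCODE M21 the exons of the pair share 251 bases, 5.3% of the exonic length of Ptbp1, and exons of the antisense lncRNA E130317F20Rik share 295 bases with it (6.22%).

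Ptbp2 (ENSMUSG00000028134, chromosome 3, 119512391 to 119578115, minus strand) encodes the neuronal paralog. Its counts were 2269 and 1927 in Ezh2 f/f, against 887 and 1109 in Ezh2 cKO, or 14.1 and 12.9 against 5.58 and 7.25 FPKM. Both Ezh2 cKO libraries were lower than both Ezh2 f/f libraries, and they differed more from each other than those of Ptbp1. Ptbp2 fell by 2.24-fold (log2 fold change -1.16, SE 0.12, edgeR adjusted p = 7.76e-07). When progenitors become young neurons, Ptbp1 and Ptbp2 are known to move in opposite directions. Here the ratio of Ptbp2 to Ptbp1 FPKM was 0.954 and 0.869 in Ezh2 f/f, against 0.808 and 1.06 in Ezh2 cKO. These ranges overlapped, and the log2 ratio differed by 0.03 (exact permutation test, two-sided, p = 1). Summed over the pair, the level was 28.3 ± 0.82 FPKM (SD, n = 2) in Ezh2 f/f, against 13.3 ± 1.11 FPKM in Ezh2 cKO. Immature neuron markers fell in the same libraries, at 2053 to 2235 CPM in Ezh2 f/f, against 620 to 669 CPM in Ezh2 cKO. Progenitor markers fell too, at 372 to 380 against 169 to 179 CPM, and mature neuron markers rose. Glial markers went the other way from the PTB genes. Astrocyte markers were at 479 to 494 CPM in Ezh2 f/f, against 2558 to 2806 CPM in Ezh2 cKO, and oligodendrocyte markers at 67.9 to 83.5 against 716 to 837 CPM. The part of all these markers in the falls of Ptbp1 and Ptbp2 was not tested.

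The pair is linked by a cassette exon that PTBP1 is known to skip in its own pre-mRNA and in that of Ptbp2, which shifts the reading frame and sends the transcript to nonsense-mediated decay (NMD). The exon is shown for both genes because it is the regulated unit that a gene-level count does not see. It is in capitals, with 20 bases of the neighbouring coding exons on either side in lower case, read 5′ to 3′ from GENCODE M21 transcripts on GRCm38. In Ptbp1 it is exon 9 of 13 in a protein-coding transcript, at chr10:79862014-79862047, plus strand. In Ptbp2 it is exon 10 of 14 in a protein-coding transcript, at chr3:119724612-119724645, minus strand. Both exons lie outside the deposited positions of their genes, which do not match GRCm38.
Ptbp1 cassette exon: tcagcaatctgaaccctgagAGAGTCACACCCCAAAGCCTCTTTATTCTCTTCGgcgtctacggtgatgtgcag
Ptbp2 cassette exon: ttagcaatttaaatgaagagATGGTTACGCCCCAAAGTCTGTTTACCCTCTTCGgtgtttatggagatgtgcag
Both exons are 34 bases long, which leaves a remainder of 1 after division by 3, and 26 of the 34 bases are identical (76.5%). In each gene, 2 transcripts annotated as NMD targets join the neighbouring exons without it. GENCODE M21 lists 3 NMD transcripts among 16 for Ptbp1, 2 among 13 for Ptbp2, 1 among 5 for Srrm4 and none for the other 7 members. How the reads divided between the forms with and without the exon was not analysed here.

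Srrm4 (ENSMUSG00000063919, chromosome 5, 116577334 to 116729876, minus strand) encodes nSR100, a neuron-specific activator of microexons. It had 1782 and 1549 counts in Ezh2 f/f, against 822 and 771 in Ezh2 cKO, or 11.7 and 11.0 against 5.47 and 5.33 FPKM. The Ezh2 cKO libraries were close to each other and well below the lower Ezh2 f/f library. The fall was 2.23-fold (log2 fold change -1.15, SE 0.10, edgeR adjusted p = 1.29e-07). A transcript model on the same strand within its span, Gm42853, was lower as well, with 148 and 136 counts against 69 and 52. Srrm3, the paralog that also promotes microexons, had 1594 and 1644 counts in Ezh2 f/f, against 2001 and 1770 in Ezh2 cKO and was not called (log2 fold change 0.12, 95% interval -0.09 to 0.34). Srrm3 was named after its values were seen. In the same libraries the median log2 fold change was -1.62 over the immature neuron list and -1.02 over the progenitor list. It was 1.53 over the mature neuron list. The part of these markers in the fall of Srrm4 was not tested.

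The RBFOX family, which binds the GCATG element beside regulated exons, held the most abundant member and members that moved in opposite directions. Rbfox2 (ENSMUSG00000033565, chromosome 15, 76963190 to 77191204, minus strand), the paralog expressed most widely across tissues, had 16939 and 16138 counts in Ezh2 f/f, against 8359 and 7899 in Ezh2 cKO. Its FPKM was 119 and 122 in Ezh2 f/f, against 59.3 and 58.2 in Ezh2 cKO, with no overlap, a fall of 2.17-fold (log2 fold change -1.12, SE 0.08, edgeR adjusted p = 1.76e-08). Rbfox3 (ENSMUSG00000025576, chromosome 11, 118380588 to 118802423, minus strand) encodes NeuN, the nuclear antigen of mature neurons. It had 3307 and 3013 counts in Ezh2 f/f, against 5159 and 4880 in Ezh2 cKO, or 32.4 and 31.8 against 51.2 and 50.3 FPKM. Every Ezh2 cKO library was above every Ezh2 f/f library, a rise of 1.49-fold (log2 fold change 0.58, SE 0.08, edgeR adjusted p = 3.28e-05). Rbfox1 (ENSMUSG00000008658, chromosome 16, 5703219 to 7229390, plus strand), a paralog of neurons and muscle, had 960 and 658 counts in Ezh2 f/f, against 1295 and 1446 in Ezh2 cKO. That is 12.5 and 9.19 against 17.0 and 19.7 FPKM, with a wider spread in both groups and no overlap. Rbfox1 rose 1.60-fold (log2 fold change 0.68, SE 0.13, edgeR adjusted p = 0.000279).

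The make-up of the family differed between the groups. Rbfox2 supplied 73.7% ± 1.59 (SD, n = 2) of the summed RBFOX FPKM in Ezh2 f/f, against 46.0% ± 0.79 in Ezh2 cKO. Rbfox3 supplied 19.7% ± 0.20 and 39.7% ± 0.65, and Rbfox1 6.63% ± 1.39 and 14.4% ± 1.44. The ratio of Rbfox3 to Rbfox2 was 0.273 and 0.261 in Ezh2 f/f, against 0.863 and 0.864 in Ezh2 cKO, a rise of 3.23-fold. The ratio of Rbfox1 to Rbfox2 was 0.105 and 0.0754 in Ezh2 f/f, against 0.287 and 0.339 in Ezh2 cKO, a rise of 3.50-fold. In neither ratio did the groups overlap, and each exact permutation test (two-sided) gave p = 0.333, the smallest value that 2 against 2 libraries allow. Summed over the family, the level was 163 ± 0.57 FPKM in Ezh2 f/f, against 128 ± 0.55 FPKM in Ezh2 cKO. Neuronal maturity markers moved in the same libraries, with the mature neuron list at 6445 to 6772 CPM in Ezh2 f/f, against 10921 to 11218 CPM in Ezh2 cKO and the immature list at 2053 to 2235 and 620 to 669 CPM. Their part in the RBFOX result was not tested.

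**Figure D3:**
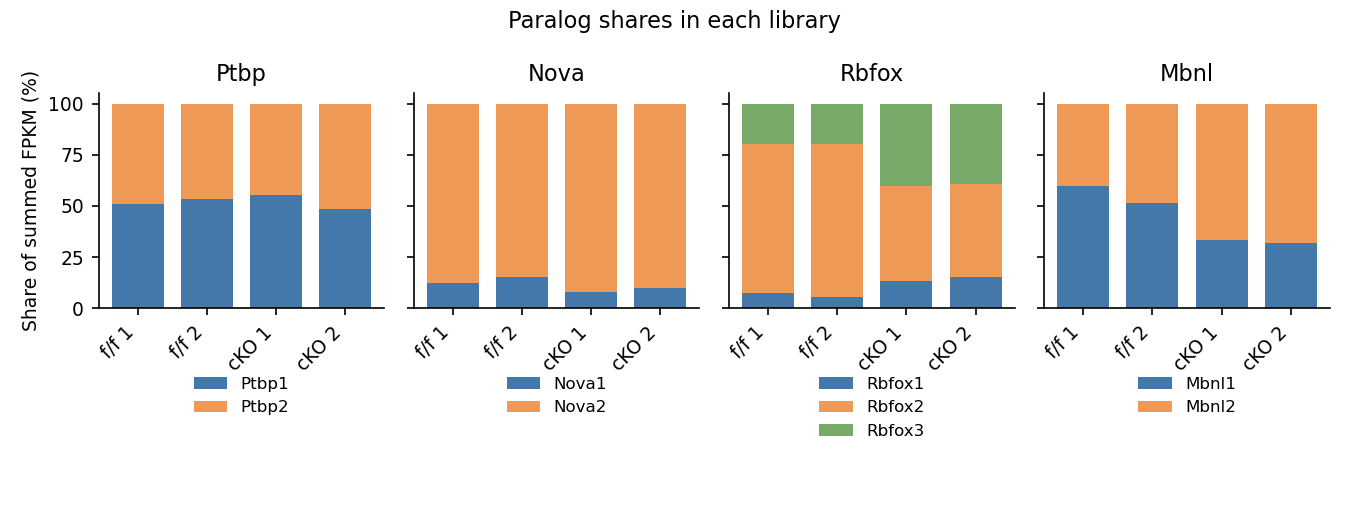
Share (%) of each paralog in the summed FPKM of its family, with 1 bar per library (f/f, Ezh2 f/f; cKO, Ezh2 cKO). Rbfox2 made up 73.7% of the RBFOX sum on average in Ezh2 f/f, against 46.0% in Ezh2 cKO, while the 2 PTB paralogs kept similar shares in all libraries.

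The NOVA paralogs, KH-domain proteins of neurons that bind YCAY clusters, differed in how far they changed between the groups. Nova1 (ENSMUSG00000021047, chromosome 12, 46741300 to 46865712, minus strand) had 853 and 1090 counts in Ezh2 f/f, against 523 and 615 in Ezh2 cKO, or 5.57 and 7.66 against 3.45 and 4.22 FPKM. The Ezh2 f/f libraries were spread widely, though both were above the Ezh2 cKO libraries. Nova1 fell by 1.83-fold (log2 fold change -0.87, SE 0.14, edgeR adjusted p = 8.41e-05). Nova2 (ENSMUSG00000030411, chromosome 7, 18659813 to 18699244, plus strand), the more abundant paralog and the main form in cortex, had 5742 and 5757 counts in Ezh2 f/f, against 5795 and 5355 in Ezh2 cKO. Its FPKM was 39.1 and 42.3 against 39.9 and 38.4, which overlap, although CPM scaled by the TMM method did not. It was the 1 member that was not called, with a log2 fold change of -0.14 (95% interval -0.32 to 0.04, edgeR adjusted p = 0.163). The ratio of Nova2 to Nova1 was 7.03 and 5.52 in Ezh2 f/f, against 11.6 and 9.10 in Ezh2 cKO, a log2 difference of 0.72 (exact permutation test, two-sided, p = 0.333, the smallest possible). Nova2 made up 86.1% ± 2.05 of the NOVA sum in Ezh2 f/f, against 91.1% ± 1.38 in Ezh2 cKO (SD, n = 2). The immature neuron list was at 2053 to 2235 CPM in Ezh2 f/f, against 620 to 669 CPM in Ezh2 cKO, and the mature list rose. The part of these markers in the NOVA result was not tested.

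The muscleblind genes, which encode zinc finger proteins that bind YGCY motifs and promote adult exon patterns, had the lowest FPKM of the members and were both higher in Ezh2 cKO. Mbnl2 (ENSMUSG00000022139, chromosome 14, 120513081 to 120669109, plus strand), the main muscleblind protein of adult brain, had 101 and 120 counts in Ezh2 f/f, against 366 and 432 in Ezh2 cKO. Its FPKM was 0.481 and 0.615 against 1.76 and 2.16, so that each Ezh2 cKO library was clearly above both Ezh2 f/f libraries. The rise was 3.38-fold (log2 fold change 1.76, SE 0.17, edgeR adjusted p = 6.71e-07), the largest of the 10 in either direction. On the log2(FPKM + 1) scale, which compresses changes at levels this low, limma gave 0.93 for Mbnl2. Mbnl1 (ENSMUSG00000027763, chromosome 3, 60380251 to 60537171, plus strand) had 234 and 200 counts in Ezh2 f/f, against 288 and 313 in Ezh2 cKO, or 0.713 and 0.657 against 0.888 and 1.00 FPKM. The groups were near each other without overlapping, and the rise of 1.30-fold was the least certain call (log2 fold change 0.38, SE 0.15, edgeR adjusted p = 0.0320). That call was lost with DESeq2 (adjusted p = 0.114), without the filter on low counts (edgeR, 0.0543), and in edgeR when either Ezh2 cKO replicate 1 (0.0571), Ezh2 cKO replicate 2 (0.172) or Ezh2 f/f replicate 2 (0.106) was left out. The gene lengths behind these FPKM values are long, 18717 bases for Mbnl1 and 11993 for Mbnl2, and a length that includes unused exons lowers the FPKM.

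The ratio of Mbnl2 to Mbnl1 was 0.674 and 0.936 in Ezh2 f/f, against 1.98 and 2.15 in Ezh2 cKO, so the order of the pair differed between the groups. The log2 ratio rose by 1.38 (exact permutation test, two-sided, p = 0.333, the smallest possible), and by 0.73 with 1 added to each FPKM. Markers of several glial types were higher in the same libraries. Astrocyte markers went from 479 to 494 CPM in Ezh2 f/f to 2558 to 2806 CPM in Ezh2 cKO, and oligodendrocyte markers from 67.9 to 83.5 CPM to 716 to 837 CPM (6 of 6 higher). The mature neuron list rose as well, from 6445 to 6772 CPM in Ezh2 f/f to 10921 to 11218 CPM in Ezh2 cKO, while the immature neuron list fell. The part of these glial and neuronal markers in the muscleblind levels was not tested.

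FPKM divides by the length of all annotated exons of a gene, so unused exons lower it and the order of genes depends on these lengths. Ptbp2 had 2269 and 1927 counts in Ezh2 f/f, against 1229 and 1145 for Ptbp1, with lengths of 9175 and 4740 bases. On this scale the order in Ezh2 f/f was Rbfox2, Nova2, Rbfox3, Ptbp1, Ptbp2, Srrm4, Rbfox1, Nova1, Mbnl1 and Mbnl2. Of these neighbours only Srrm4 and Rbfox1 overlapped across libraries. In Ezh2 cKO the order was Rbfox2, Rbfox3, Nova2, Rbfox1, Ptbp1, Ptbp2, Srrm4, Nova1, Mbnl2 and Mbnl1, with overlap only between Ptbp1 and Ptbp2. Rbfox2 exceeded the next gene by 2.96-fold in Ezh2 f/f and by 1.16-fold in Ezh2 cKO. Rbfox1 moved from rank 7 to rank 4.

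**Figure D4:**
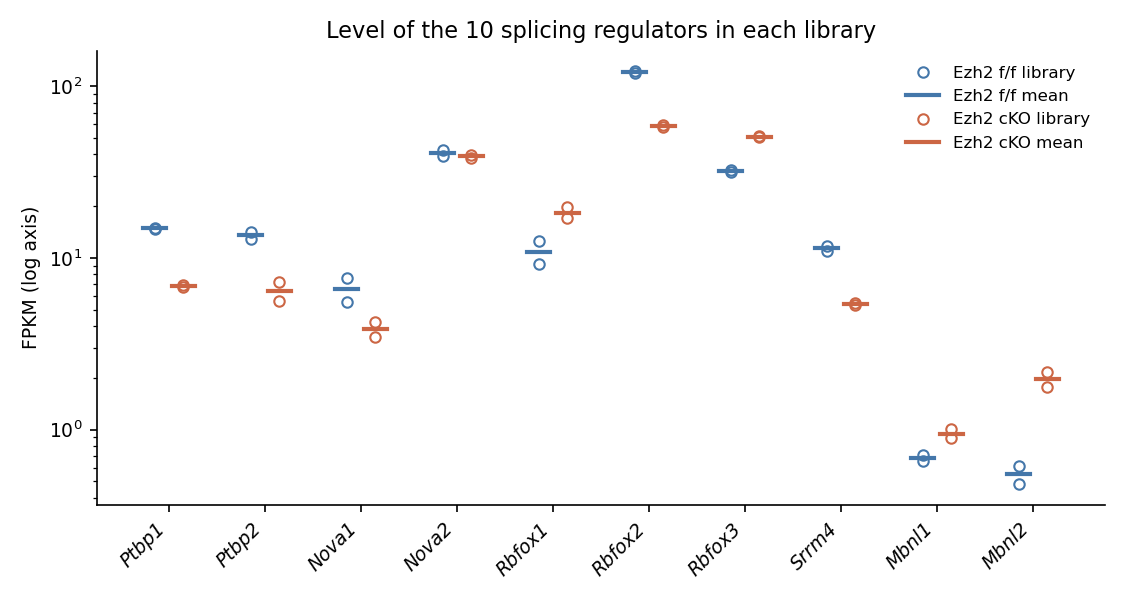
FPKM (log axis) of the 10 splicing regulators, with 1 circle per library and a line at the mean of each group. Rbfox2 lay near 120 FPKM in Ezh2 f/f and near 59 in Ezh2 cKO, and the groups overlapped for Nova2 alone.

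The promoters of the members were looked up in RefSeq (GRCm38.p6, 250 bases before to 50 after each start), because Polycomb repressive complex 2 is known to act at promoters rich in the CG dinucleotide. Of the 10 members, 9 were matched, with 11 promoters in all, and Rbfox2 was not. Over all 32544 promoters the median was 7 CG. The matched genes that fell had 36 CG in Ptbp2 (at least as many in 6.29% of all promoters), 25 in Srrm4 (18.6%), 22 in Ptbp1 (23.3%) and 14 in Nova1 (36.5%). Nova2, which was not called, had 17 (31.6%). Among the genes that rose, Mbnl2 had 10 (43.8%), Rbfox3 had 4 (69%), and Rbfox1 had 3 and 7 at its starts (76.9% and 52.4%). The starts of Mbnl1 had 2 and 41 (86% and 3.49%), so the ranges for genes that rose and fell overlap. The 250 bases before the start are printed for Ptbp2, the member that fell with the most CG, and for Mbnl2, the member with the largest rise, with each CG in capitals (Ptbp2, chr3:119783389-119783638, minus strand, 23 CG; Mbnl2, chr14:120275419-120275668, plus strand, 10 CG).
Ptbp2 promoter: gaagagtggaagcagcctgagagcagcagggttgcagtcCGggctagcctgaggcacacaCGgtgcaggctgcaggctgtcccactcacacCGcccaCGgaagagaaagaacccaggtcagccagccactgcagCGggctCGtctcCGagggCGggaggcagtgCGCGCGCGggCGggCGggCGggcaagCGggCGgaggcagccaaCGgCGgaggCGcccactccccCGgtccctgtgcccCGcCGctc
Mbnl2 promoter: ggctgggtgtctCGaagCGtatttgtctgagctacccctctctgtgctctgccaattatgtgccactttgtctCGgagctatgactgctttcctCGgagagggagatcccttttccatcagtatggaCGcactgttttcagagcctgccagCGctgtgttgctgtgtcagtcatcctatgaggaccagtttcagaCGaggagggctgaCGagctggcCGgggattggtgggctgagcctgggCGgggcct
A count of CG is a description of these windows and says nothing of binding or of H3K27me3 in these cells.

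Known upstream regulators of these genes were read from a short list. Rest, a repressor of neuronal genes that includes Srrm4 among its known targets, had 153 and 141 counts in Ezh2 f/f, against 76 and 77 in Ezh2 cKO (log2 fold change -1.03, SE 0.19, edgeR adjusted p = 0.000283). The miRNA miR-124 is known to reduce PTBP1 in neurons, and 2 of its host transcripts were measured. Mir124a-1hg rose from 1057 and 998 counts to 2696 and 2513 (log2 fold change 1.25, SE 0.09, edgeR adjusted p = 4.33e-08). Mir124-2hg had 250 and 289 counts in Ezh2 f/f, against 353 and 360 in Ezh2 cKO and was not called (0.31, 95% interval -0.01 to 0.62, edgeR adjusted p = 0.0766). Mir9-3hg, a host of miR-9, fell from 1992 and 1903 counts to 1436 and 1293 (-0.61, SE 0.09, edgeR adjusted p = 5.73e-05). Host transcripts are not mature miRNAs, whose levels were not measured here. In the same libraries the mature neuron list rose, and the immature neuron and progenitor lists fell. The part of these regulators and markers in the levels of the members was not tested.

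Transcripts that PTBP1 is known to hold back in non-neuronal cells, by exon skipping or intron retention, were mostly higher. Of 6 such genes, 5 were called higher and none lower, against 34.7% and 33.6% of all genes tested, and the median log2 fold change was 0.77 against 0.02. Kif5a, a neuronal kinesin, went from 8345 and 8447 counts to 20436 and 18583 (log2 fold change 1.12). Dlg4, which encodes the postsynaptic scaffold PSD-95, went from 9660 and 9580 to 23463 and 20639 (1.10). The synaptic vesicle gene Vamp2 rose by 0.83 on the log2 scale. Sv2a, another synaptic vesicle gene, was not called, with 6715 and 7138 counts in Ezh2 f/f, against 7864 and 7674 in Ezh2 cKO (0.07, 95% interval -0.12 to 0.26). All 6 are genes of neurons, and the mature neuron list, at 6445 to 6772 CPM against 10921 to 11218 CPM, moved the same way. Its part in this count was not tested.

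Among 28 other splicing regulators, 27 were in the tables (Raver1 was not among them) and 24 passed the filter on low counts, which left out Mbnl3, Esrp1 and Esrp2. Of the 24 tested, 7 were called higher and 10 lower, near the 34.7% and 33.6% of all genes tested, with a median log2 fold change of -0.20 against 0.02. Without Ezh2 cKO replicate 1, 6 in place of 10 were called lower. The CELF and ELAVL families, like RBFOX, held members of both directions. Celf3 and Celf4, neuronal CELF proteins, rose from 2228 and 1868 to 5050 and 4558 counts and from 1644 and 1303 to 3341 and 3582 counts (log2 fold changes 1.14 and 1.14). Elavl4, which encodes the neuronal protein HuD, rose from 181 and 233 to 620 and 653 counts (1.52), and Raver2, a partner of PTB proteins, from 273 and 261 to 514 and 513 (0.85). Elavl3, which encodes HuC, fell from 9145 and 8698 to 5365 and 5101 counts (-0.86). Msi1, the Musashi protein of neural progenitors, fell from 3702 and 3318 to 939 and 876 (-2.04), more than any of the 10 members. Rbm38 went from 271 and 226 to 75 and 76 counts (-1.81), and Tia1, which promotes exons with weak splice sites, from 921 and 927 to 656 and 692 (-0.55). Adjusted p in edgeR for these 8 genes lay between 5.38e-10 for Msi1 and 0.000211 for Tia1. Ptbp3, the remaining PTB paralog, had 243 and 219 counts in Ezh2 f/f, against 216 and 227 in Ezh2 cKO and was not called (-0.15, 95% interval -0.47 to 0.17). Ptbp3 was named after its values were seen. The progenitor markers, at 372 to 380 CPM in Ezh2 f/f, against 169 to 179 CPM in Ezh2 cKO, fell in the same libraries as Msi1, and their part in its fall was not tested.

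**Figure D5:**
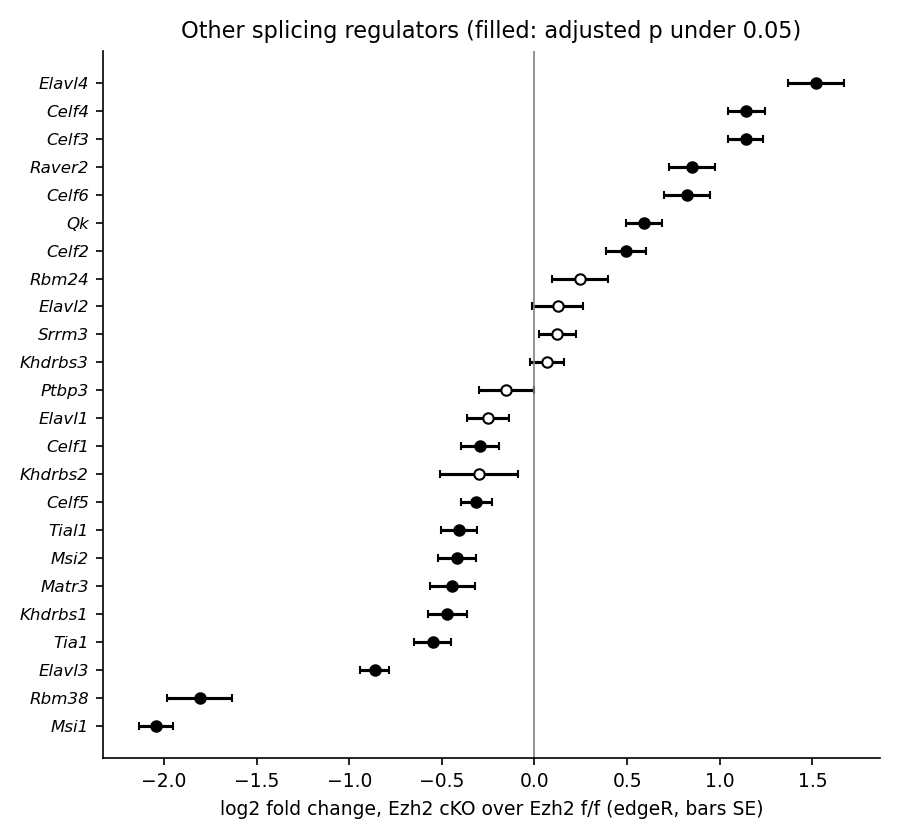
Log2 fold change (Ezh2 cKO over Ezh2 f/f, edgeR, bars SE) of the 24 other splicing regulators tested, with filled points for adjusted p under 0.05. Values ran from -2.04 for Msi1 to 1.52 for Elavl4, with 7 called higher and 10 lower.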

How the data were processed

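RNA was measured in 4 libraries, 2 Ezh2 f/f and 2 Ezh2 cKO, grouped by the labels. The authors deposited read counts per gene, which were not normalized, and FPKM values, which scale counts to gene length and library size. Submitters' processing notes name Bowtie2 2.2.3, TopHat2 2.0.12, HTSeq 0.6.0 and mm9, with no role or order; the use of strand is not given in the sources used here. Of 29224 genes, 28799 identifiers are in GENCODE M21 (GRCm38) and 581 have the same position there, so gene positions are given as deposited. The build of these positions was not established, and they cannot be set against the GRCm38 coordinates of exons and promoters. Columns holding the authors' own comparison (mean signal, ratio, log2 ratio, p and adjusted p) were not used, and 0 sample columns were left out.

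Counts were filtered with filterByExpr, scaled by TMM and tested with edgeR 4.0.16 (quasi-likelihood, no covariate beside the group; common BCV, the biological coefficient of variation, 0.0953) in R 4.3.3. Adjustment followed Benjamini and Hochberg over 16793 genes. Intervals are at 95% from the same fit. Alternatives were DESeq2 1.42.0 (Wald test), its size factors in edgeR, no filter, a mean of at least 50 counts, limma 3.58.1 on log2(FPKM + 1) and log2(FPKM + 0.1) for genes that reach an FPKM of 1 in 2 libraries, a block on the replicate number, and each library left out in turn. The edgeR test, the DESeq2 test and limma on log2(FPKM + 1) were tried on simulated data first. The other settings and the exact permutation test were not. Paralog ratios are of FPKM, so the level of a ratio depends on the gene lengths used. Sequences came from GENCODE M21 and RefSeq (GRCm38.p6), read with Python 3.11.15, numpy 2.4.6 and pandas 2.3.3.

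The members and gene lists were chosen with earlier results of these data known. Named genes are all members, Ezh2, the upstream regulators, up to 4 called genes of smallest p in each direction of every other list, and for neurons and progenitors the 2 markers of smallest p, except 1 gene that is not reported here; Aldh1l1, Tubb3, Srrm3, Ptbp3, Sv2a, list genes left out by a filter or the tables, and genes that overlap a member were named in addition, after their values were seen.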

Additional observations from a re-analysis of the deposited data

How the results depend on the processing

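Of the 10 splicing regulators, all but Mbnl1 kept their direction and call in the 11 alternatives, with Mbnl2 between 0.93 and 1.93 and Nova2, never called, between -0.20 and -0.05 on the log2 scale. Mbnl1 kept its call in 4 of the 9 alternatives that gave it a value. It was not tested in limma, whose FPKM filter removed it. On log2(FPKM + 1), limma called 0 members higher and 2 lower by at least 2-fold, in place of 1 and 4, because adding 1 shrinks changes at low FPKM. The Mbnl2 to Mbnl1 log2 ratio difference was 0.73 with 1 added to each FPKM. With each library left out in turn, members lower by at least 2-fold numbered 3 to 5, other splicing regulators called lower 6 to 11, and the Ptbp2 to Ptbp1 log2 ratio difference ran from -0.17 to 0.23. A fit with the replicate number as a block gave 4 members higher and 5 lower and changed no member's call, and it counted 7 and 10 of the other splicing regulators higher and lower. Over genes, the deviations of the replicate 1 libraries from their group means correlated at 0.13. With 2 libraries per group, those of replicate 2 are the same with the sign reversed and add nothing. No label says that a number marks a shared litter or day. With 2 libraries per group, an exact test of a single ratio cannot go below 0.333. Mbnl1 and Mbnl2 rest on 101 to 432 counts a library.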
